A study of Mus musculus with 2 samples.

Results

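Forkhead transcription factors of head and pharyngeal arch mesenchyme were examined in the walls of embryonic mouse arteries. The group holds 9 genes, Foxc1, Foxc2, Foxd1, Foxd2, Foxf1, Foxf2, Foxp1, Foxp2 and Foxs1, out of 18193 genes represented on the array, and was chosen by gene name. All 9 were on the array, with 25 probe sets between them. RNA came from microdissected internal or external carotid arteries of ICR embryos at E13.5, mid-gestation, with no treatment. Segments of 22 embryos were pooled per the design text, and the sources used here do not say whether each embryo gave both vessels. The pools are called the external and internal pool below. Each pool was read on 1 Affymetrix array and no replicate was made, so every value is a single measurement per vessel, no p-value can be given, and the spread between embryos or dissections is unknown.

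Forkhead proteins bind DNA through a shared winged-helix domain. The FOXC, FOXD and FOXF proteins act in mesenchyme derived from neural crest and mesoderm, where several of these genes respond to Hedgehog signals. FOXC1 and FOXC2 are known for their part in forming the aortic arch arteries and in arterial specification of endothelium. FOXF1 is known from lung and gut mesenchyme, FOXF2 from palate mesenchyme and brain pericytes, and FOXS1 from neural crest derivatives and perivascular cells. FOXP1 and FOXP2 mainly repress transcription and are made in many tissues, neurons and muscle among them.

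Foxd1 was the 1 gene of the group that differed 2-fold or more. Its signal was 1397 in the external and 457 in the internal pool, a 3.06-fold difference. Foxc1, Foxc2 and Foxs1 were brighter in the external pool by 1.73-fold, 1.44-fold and 1.39-fold. Foxf1, Foxp2, Foxd2 and Foxp1 had ratios near equality by their brightest probe set, and Foxf2 lay in the dim range on both arrays. None of the 9 genes reached 2-fold in favour of the internal pool.

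Ratios are log2 of external over internal signal, where 1 is a 2-fold difference, and a gene is given by its brightest probe set unless another is named. A probe set had a ratio where both signals reached a floor, the median of each array, 47.5 for internal and 52.3 for external carotid. Where 1 side lay under its floor, the ratio of the other signal to that floor is given as a lower bound. No ratio is given where both lay under, or where such a bound would not exceed 1-fold. Probe sets of the same gene differed with a pooled standard deviation of 0.34, or 1.26-fold. It describes how far probes disagree on the same pair of arrays, and no more.

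**Figure D1:**
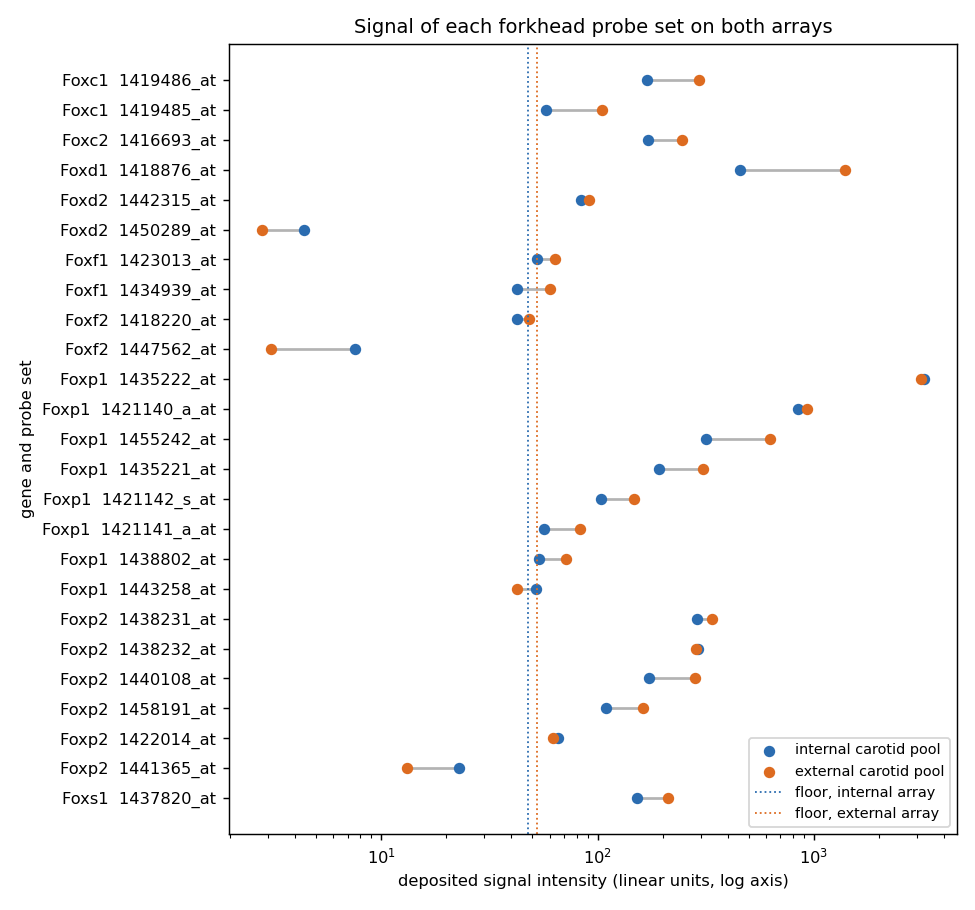
Deposited signal intensity (log axis) of each of the 25 probe sets on the internal (blue) and external (orange) carotid array, with dotted lines at the floors of 47.5 and 52.3. Foxd1 has the widest gap among probe sets over both floors, from 457 to 1397, while the pairs of points of Foxd2 (1442315_at) and the brightest Foxp1 probe set nearly coincide.

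Of the 25 probe sets, 19 were over both floors, 2 were under 1 of them and 4 were under both. A ratio or bound was had for 20 probe sets, of which 17 were above 0 and 3 below, where 57.1% of all probe sets with 1 gene were above 0. Foxp1 and Foxp2 gave 7 and 5 of the 20, with 6 and 3 above 0, and some of these share a source sequence. The probe set count thus weighs these genes most and is not a count of separate genes. By probe set, 1 of the 20 was raised 2-fold or more in the external pool (1.93% of all probe sets) and 0 in the internal pool (1.37%). By gene, 8 of 9 had a ratio, and 7 of the 8 were above 0. Over all genes with a ratio or bound, 56.1% of 12408 were above 0. The median log2 ratio of the 8 genes was 0.37, against 0.06 over all genes, and 0.28 over the 7 genes other than Foxd1. By gene, 1 of the 8 was 2-fold or more higher in the external pool, against 2.10% of all genes. In the internal pool 0 of the 8 were, against 1.47% of all genes. With 8 genes, a count of 0 in a class of that size says nothing about the group. Over all genes the calls were 261 external and 183 internal, a split that turned to 175 and 272 after centring on the array medians, 203 and 219 after quantile normalization and 198 and 224 after loess.

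The ratios ran in the order Foxd1, Foxc1, Foxc2, Foxs1, Foxf1, Foxp2, Foxd2 and Foxp1. Only the step from Foxd1 to Foxc1, 0.82 on the log2 scale, was wider than the spread expected for a difference of 2 probe sets, 0.48. The other neighbouring steps were 0.05 to 0.27, so neighbours below Foxd1 are not told apart by these arrays. The probe set spread leaves out differences between arrays, dissections and embryos, so the step from Foxd1 to Foxc1 is not tested by it.

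**Figure D2:**
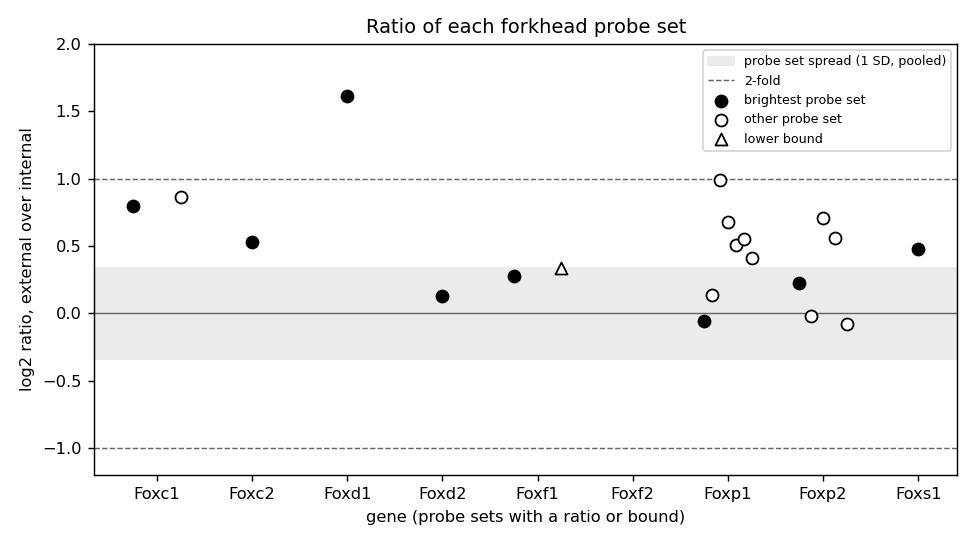
Log2 ratio, external over internal carotid, of the 20 probe sets with a ratio (circles) or lower bound (triangle), by gene, with the brightest probe set filled. The grey band is the pooled probe set spread of 0.34 either side of 0 and dashed lines mark 2-fold. Foxd1 stands at 1.61, both Foxc1 probe sets at 0.79 and 0.86, and the Foxp1 and Foxp2 probe sets spread from near 0 to 0.99 and 0.71.

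Foxd1, which marks stromal progenitors of the kidney and is made in facial mesenchyme, had a log2 ratio of 1.61. It ranked 51 of 12408 genes from the external end, and 0.41% of all genes had a ratio at least as high. It is read by a single probe set, 1418876_at, with both signals well over the floors, so no other probe set of the gene can be set beside it. Of 10 equal groups of genes by brightness, the one that holds Foxd1 had a median ratio of -0.05, and Foxd1 lay 1.66 above that median. The call at 2-fold held under all 9 alternative settings, where the log2 ratio ranged from 1.47 to 1.67. With 1 probe set well over the floors, changes of floor or probe set choice could not move the ratio. It was 1.47 after centring, 1.67 after quantile normalization, 1.66 after loess and 1.52 with the pseudocount.

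Its close relative Foxd2, found in head, arch and kidney mesenchyme, did not show that difference, though at a dim signal. Its brighter probe set was at 1.77 and 1.75 times the internal and external floors, without a value at the 75th percentile floor. Foxd2 read 91.6 in the external and 83.9 in the internal pool by probe set 1442315_at, a log2 ratio of 0.13, within the probe set spread and at -0.01 after centring. The other Foxd2 probe set, 1450289_at, read 2.80 and 4.40, under both floors. The ratios of Foxd1 and Foxd2 differed by 1.49, which is 3.10 times the spread of a difference between probe sets. Foxd3, a regulator of neural crest and its glia, read 136 externally and 48.6 internally, 2.79-fold apart, the lower signal just over its floor.

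RefSeq (GRCm38.p6) promoter windows, from 250 bases before a start site to 50 after it, were at hand for 5 of the 9 genes, 7 windows in all. The windows of Foxd1 and Foxd2 are shown because these paralogues differed most between the pools, and 1 of 3 Foxp1 windows because that gene has several start sites and probe sets that disagree. Capitals mark matches, on either strand, to the TATA box letters TATAA, the CCAAT box letters CCAAT and the forkhead core TGTTTA, a choice of motifs made after the sequences had been seen. No matches overlap.
Foxd1, chr13:98353995-98354294, plus strand: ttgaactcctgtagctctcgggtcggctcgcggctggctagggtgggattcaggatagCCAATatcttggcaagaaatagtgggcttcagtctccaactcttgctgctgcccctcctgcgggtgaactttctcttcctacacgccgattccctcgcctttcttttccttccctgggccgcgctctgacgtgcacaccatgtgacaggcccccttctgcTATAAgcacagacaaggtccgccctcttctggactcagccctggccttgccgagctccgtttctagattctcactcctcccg
Foxd2, chr4:114908849-114909148, minus strand: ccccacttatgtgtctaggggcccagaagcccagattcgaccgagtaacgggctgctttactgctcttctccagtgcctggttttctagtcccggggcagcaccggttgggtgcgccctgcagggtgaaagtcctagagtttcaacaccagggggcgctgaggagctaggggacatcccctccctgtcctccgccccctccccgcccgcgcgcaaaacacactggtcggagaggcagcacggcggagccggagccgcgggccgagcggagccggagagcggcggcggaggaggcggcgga
Foxp1, chr6:99266466-99266765, minus strand: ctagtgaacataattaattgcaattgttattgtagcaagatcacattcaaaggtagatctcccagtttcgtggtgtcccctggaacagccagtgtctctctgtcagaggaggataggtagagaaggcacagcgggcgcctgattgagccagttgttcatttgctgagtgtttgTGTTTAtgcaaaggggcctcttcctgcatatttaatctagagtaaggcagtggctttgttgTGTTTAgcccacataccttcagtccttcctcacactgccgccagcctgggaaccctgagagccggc

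The Foxd1 window holds TATAA at -32 from the start site and CCAAT at -192. Of 32851 RefSeq promoter windows of 300 bases, 24.9% hold TATAA and 37.4% hold CCAAT. The Foxd2 window holds neither, and its share of G and C was 67.7%, against 57.7% for Foxd1 and a median of 52.7% over all windows. The forkhead core was found in each of the 3 Foxp1 windows, with 2 matches in the one shown, at -77 and -16, and in no window of Foxc1, Foxd1, Foxd2 or Foxf2. It is found in 13.4% of all windows. The core of the GLI site, GACCACCC, which Hedgehog effectors bind, was in 0 of the 7 windows and in 0.807% of all windows. These are letter matches in a short window and say nothing about binding.

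Foxc1 and Foxc2 were both brighter in the external pool, though neither reached 2-fold. Foxc1 read 295 in the external and 170 in the internal pool by probe set 1419486_at, a log2 ratio of 0.79. A further Foxc1 probe set made from the same source sequence, 1419485_at, read 105 and 57.8, a log2 ratio of 0.86. The 2 Foxc1 probe sets thus differed by far less than the pooled spread, and 3.97% of all genes had a ratio at least as high as that of the brighter one. Foxc2, which has 1 probe set, 1416693_at, read 245 and 170, a log2 ratio of 0.53. The ratios of Foxc1 and Foxc2 differed by 0.27, less than the spread of a difference. Both exceeded the single probe set spread, as did 21.6% of all genes in that direction. Under the 9 alternatives Foxc1 ranged from 0.65 to 0.83 and Foxc2 from 0.39 to 0.53.

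Foxs1, read by 1437820_at, read 211 in the external and 152 in the internal pool, a log2 ratio of 0.47, with 0.33 to 0.47 under the alternatives. The pericyte and mural cell markers, whose cells can make Foxs1, lay mostly on the other side of 0. Of their 11 genes with a value, 9 were below 0 and 2 above, with a median of -0.16. Their summed signal was 14005 in the external and 16551 in the internal pool. Schwann cell and neural crest markers lay mostly on the same side as Foxs1, with 7 of 8 above 0 and a median of 0.78. Endothelial markers did too, with 11 of 14 above 0 and a median of 0.29. The smooth muscle median was 0.31, with 6 of 10 above 0 but the larger summed signal in the internal pool. Which cells carried the Foxs1 signal was not tested.

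Foxf1 and Foxf2 were dim on both arrays. Foxf1, a Hedgehog-responsive gene, read 63.3 in the external and 52.3 in the internal pool by 1423013_at, a log2 ratio of 0.28. The other Foxf1 probe set, 1434939_at, read 60.1 and 42.5, which gives a lower bound of 0.34 because the internal signal was under its floor. The ratio of the brighter probe set lay within the probe set spread, and ranged from 0.13 to 0.31 under the alternatives that gave it a value. Foxf2 read 48.2 and 42.3 by its brighter probe set and 3.10 and 7.60 by the other, all under the floors, so no ratio is given and a difference was not detectable at this signal.

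Foxp1 and Foxp2 gave different answers by probe set. Of the 8 Foxp1 probe sets 7 had a ratio, and 6 of these were above 0. The brightest, 1435222_at, read 3116 in the external and 3242 in the internal pool, a log2 ratio of -0.06. The next brightest, 1421140_a_at, read 925 and 841, a log2 ratio of 0.14. Neither of these 2 probe sets showed a difference beyond the probe set spread.

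The remaining 5 Foxp1 probe sets with a ratio were all brighter in the external pool by more than that spread. Probe set 1455242_at read 630 and 317, a log2 ratio of 0.99, and 1435221_at read 307 and 192, a log2 ratio of 0.68. Both were made from the same source sequence as 1435222_at, whose ratio was -0.06. The other 3 had ratios of 0.41 to 0.55, with signals of 53.7 to 147. The last Foxp1 probe set, 1443258_at, read 42.5 and 52.0, with the external signal under its floor and the internal signal not above that floor, and has no ratio.

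The Foxp1 ratios thus spanned 1.05 on the log2 scale, and their median was 0.50, so the direction given for Foxp1 depends on the probe set. Scaling moved it too, since the brightest probe set was at 0.16 after quantile normalization and after loess and at -0.20 after centring. The group of genes as bright as that probe set had a median of -0.20.

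Foxp2 spanned 0.79 over 5 of 6 probe sets. The brightest pair, made from one source sequence, read 338 and 290 by 1438231_at, a log2 ratio of 0.22, and 286 and 290 by 1438232_at, a log2 ratio of -0.02. Probe sets 1440108_at and 1458191_at were higher in the external pool at 0.71 and 0.56, with signals of 282 and 172 in the former and 162 and 110 in the latter. Probe set 1422014_at was at -0.08, and 1441365_at, at 13.2 and 22.8, lay under both floors. The ratios of Foxp1 and Foxp2 by their brightest probe sets differed by -0.28, less than the spread of a difference.

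**Figure D3:**
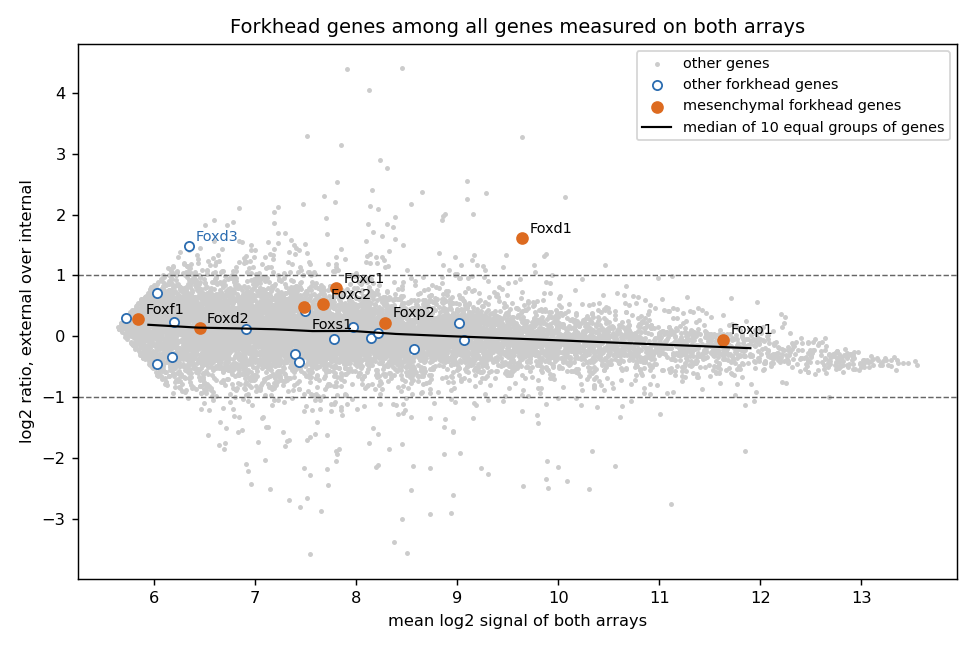
Log2 ratio, external over internal carotid, against mean log2 signal for every gene measured on both arrays (grey), with the 8 measured genes of the group in orange, other forkhead genes as open blue circles and the medians of 10 equal groups of genes by brightness as a black line. The black line falls from 0.19 in the dimmest to -0.20 in the brightest group, Foxd1 stands at 1.61 apart from the cloud around it, and Foxc1 is at 0.79.

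The rest of the forkhead family was centred near 0. Of 35 further forkhead genes listed, 28 were on the array and 17 had a ratio or bound, of which 9 were above 0 and 8 below. Their median log2 ratio was 0.05, and it fell below 0 under 3 settings, namely centring, the 75th percentile floor and the median of probe sets. Foxd3 was the 1 gene of these called for the external pool, though under 2-fold with the pseudocount and without a value at the 75th percentile floor, and 0 were called for the internal pool. Foxq1 followed at 0.70, with signals of 83.3 and 51.1, and the lowest were Foxn2 at -0.46 and Foxo4 at -0.42.

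Several genes of the group are neighbours in the genome. In RefSeq order Foxf2 and Foxc1 lie on chromosome 13 after Foxq1, with noncoding genes in between, and Foxf1 and Foxc2 lie on chromosome 8 with Foxl1 beside Foxc2. Of the first cluster Foxq1 and Foxc1 were above 0 at 0.70 and 0.79, and Foxf2 had no ratio. The nearest gene on the array before Foxf2, the noncoding 1700018A04Rik, had a lower bound of 0.20, from 54.4 in the external pool. Gmds, the gene next to Foxc1 on its other side, was at 0.61, with signals of 136 and 89.4. Of the second cluster Foxf1 and Foxc2 were at 0.28 and 0.53, while Foxl1 was under both floors at 9.60 and 12.7. Mthfsd, which lies between Foxf1 and Foxc2, was at 0.22, and the noncoding RNA gene Fendrr on the other side of Foxf1 was under both floors at 9.60 and 44.2. Away from the clusters, the nearest genes on the array beside Foxp1 were Mitf at 0.26 and Eif4e3 at -0.32, and Mdfic beside Foxp2 was at 0.37. Ppp1r3a on the other side of Foxp2 and the nearest genes beside Foxd1, Foxd2 and Foxs1 had no ratio.

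Genes that share pathways with the group were counted from lists chosen with earlier results of these data known. Of 37 head and arch mesenchyme transcription factors with a value, 25 were above 0 and the median was 0.29. The 2-fold calls were 5 for the external and 2 for the internal pool, against 2.10% and 1.47% of all genes. Some of the external calls were lower bounds, with the internal signal under its floor. The highest were Tfap2b at 2.12, a neural crest regulator also made in sympathetic neurons, and Hand1 at 2.04, and the lowest were Barx1 at -2.17 and Pitx1 at -1.50.

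The Hedgehog pathway list holds ligands, receptors, co-receptors and effectors together, so its median is no measure of signalling. Whether Hedgehog signals bear on the Foxd1 ratio was not tested. Of 13 with a value 8 were below 0, with a median of -0.11 that was 0.10 with the median over probe sets. Ptch1, the Hedgehog receptor and itself a target, had the highest ratio at 1.05, past 2-fold under 5 of 10 settings, and Gli1, another target, was at 0.19. The co-receptor gene Gas1 had the lowest ratio, -0.82. Vessel genes tied to FOXC function had a median of 0.44, with 9 of 10 above 0, against 56.1% of all genes. Of these 10, 0 were past 2-fold, against 2.10% of all genes toward the external and 1.47% toward the internal pool. Endothelial markers at large leaned the same way, with 11 of 14 above 0 and a median of 0.29. Notch4 at 0.99 and Hey2 at 0.94 were highest and Itgb3 at -0.14 lowest. Notch4 passed 2-fold under 2 of 10 settings.

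**Figure D4:**
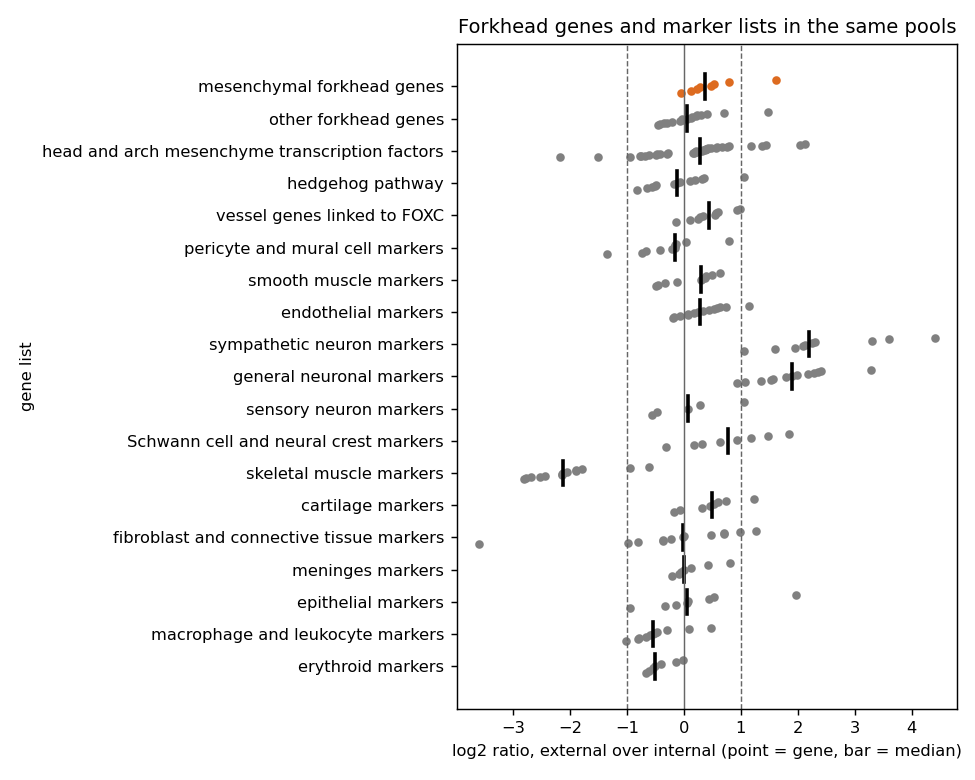
Log2 ratio, external over internal carotid, of each gene with a value (points) in the mesenchymal forkhead group (orange) and in the other gene lists (grey), with black bars at list medians and dashed lines at 2-fold. The forkhead group has a median of 0.37, between the neuronal lists at 1.90 and 2.19 and the skeletal muscle list at -2.12.

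Markers of several cell types differed between the pools, and in bulk RNA fewer cells of a type and less RNA per cell cannot be told apart. Sympathetic neuron markers summed to 6792 in the external and 1143 in the internal pool, and all 10 with a value passed 2-fold, with a median of 2.19. General neuronal markers summed to 12702 and 3001, with a median of 1.90. Schwann cell and neural crest markers summed to 4477 and 2821, with 7 of 8 above 0 and a median of 0.78, and Foxd3 is on that list. Skeletal muscle markers summed to 3604 and 17616, with 12 of 14 past 2-fold toward the internal pool and a median of -2.12. The part of these cell types in the forkhead ratios was not tested.

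The remaining cell type lists stood nearer to 0 by their medians. Fibroblast and connective tissue markers had a median of -0.01 and meninges markers of 0.00, with summed signals of 30152 and 36587 for the former and 1783 and 1789 for the latter, external first. Both medians turned positive under some settings. A median near 0 does not mean equal genes, since the fibroblast list ran from -3.59 to 1.26 and the epithelial list from -0.94 to 1.96. Cartilage markers had a median of 0.49, with sums of 1940 and 1417. Sensory neuron markers had a median of 0.07 and epithelial markers of 0.06, each below 0 under some settings. Macrophage and leukocyte markers were at -0.54 and erythroid markers at -0.51.

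Vessel wall markers were present in both pools. Endothelial markers were over at least 1 floor for 14 of 15 genes, with a median of 0.29 and 11 of 14 above 0, and smooth muscle markers for 10 of 10. The smooth muscle list was mixed, with 6 of 10 above 0, a median of 0.31 that was 0.09 at the 75th percentile floor, and sums of 19825 in the external against 23390 in the internal pool. No marker gene of any list was at 0 on either array, which does not show that it was present. The sensory neuron, cartilage and epithelial lists each had 3 genes under both floors.

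**Figure D5:**
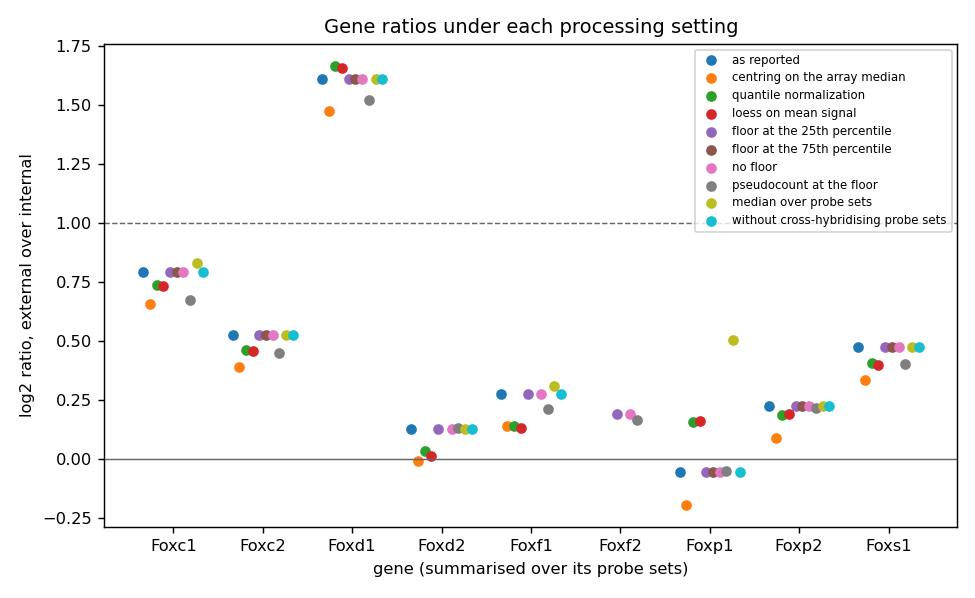
Log2 ratio, external over internal carotid, of each gene of the group as reported and under the 9 alternative settings (colours), with the dashed line at 2-fold. Foxd1 stays between 1.47 and 1.67 and Foxc1 between 0.65 and 0.83, whereas Foxp1 lies between -0.20 and 0.50 and Foxd2 crosses 0.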

How the data were processed

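Signals of 45101 probe sets came from 2 arrays, 1 per pool. The authors deposited a linear signal intensity per probe set. The submitters' processing notes name GCOS 1.4 and MAS5. The 2% trimmed mean was 150 on both arrays, so the values were used as deposited. Per the labels' protocols, RNA went through repeated amplification primed with oligo-dT, which favours 3' ends. Precision is limited by the number of arrays.

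Of 45037 non-control probe sets, 34945 had 1 gene in the platform annotation, 932 several and 9160 were not listed there. Symbols were updated through RefSeq. The brightest probe set (geometric mean) represented a gene. Floors were array medians, and 12408 genes had a ratio or bound, called at 2-fold. The probe set spread came from 4315 genes. Steps were tested on simulated data. Python 3.11.15, numpy 2.4.6, pandas 2.3.3, statsmodels 0.14.6 and matplotlib 3.10.9 were used.

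The genes, lists and alternatives were chosen with earlier results of these data known. Named genes are all 9 group members, forkhead genes past 2-fold or at the extremes of their list, RefSeq neighbours on the array, and at most the 2 highest and 2 lowest genes of the lists on transcription factors, Hedgehog and FOXC. Gli1 was added after its value was seen. Pattern likeness was not computed over 2 arrays.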

Additional observations from a re-analysis of the deposited data

How the results depend on the processing

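Each choice was changed alone. The count of group genes past 2-fold was 1 external and 0 internal. It was the same under all 9 alternatives in scaling, floor, pseudocount and probe set choice. At a 3-fold threshold the counts were also 1 and 0, and at 1.5-fold the external count was 2. Of all 12408 genes, 53 passed 3-fold and 1141 passed 1.5-fold toward the external pool. Foxd1 was only just past 3-fold at 3.06, and fell to 2.78-fold after centring and 2.87-fold with the pseudocount. The median of the group ranged from 0.21 to 0.50, and its distance from the median of all genes from 0.11 to 0.50. Centring moved the median of all genes from 0.06 to -0.08 and left 6 of 8 group genes above 0, with Foxd2 and Foxp1 below it. The share of all genes above 0 fell from 56.1% to 40.3% with centring. The distance between the 2 medians was 0.32 before and after it. After quantile normalization and after loess all 8 group genes were above 0, beside 52.9% and 52.2% of all genes. Of 70 values of single group genes under an alternative, 69 moved by less than the probe set spread or, for Foxd1, kept the call. The exception was Foxp1, at 0.50 with the median over its probe sets. Many of the 70 values could not move, since a new floor or dropping cross-hybridising probe sets leaves a measured brightest ratio unchanged here. For Foxd1, only scaling and the pseudocount could change the ratio.

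The counts of all genes depended on the floor and the threshold. Past 2-fold toward the external and internal pool were 761 and 474 with a 25th percentile floor, 85 and 99 with a 75th, and 1490 and 1088 with no floor, and 161 and 128 with the pseudocount. Calls at 1.5-fold numbered 1141 and 667, and at 3-fold 53 and 70. No paired analysis was possible because each group has 1 array. Signal over background limits Foxf1 and Foxf2 most, and Foxf2 had a value only without a floor, with the lowest floor or with the pseudocount.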
